A study of Mus musculus with 80 samples.

Results

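The SLC25 genes are the largest family of carriers of the mitochondrial inner membrane, and their mRNA was followed in mouse liver over 34 h of fasting. Members were the genes of the raw count table whose symbol is Slc25a followed by a number alone and that had at least 10 counts in at least 4 libraries. Of 47 such symbols among 78275 genes listed, 43 met this rule, as did 20384 genes in all. Slc25a18, Slc25a31, Slc25a41 and Slc25a54 did not meet it, with highest counts of 5, 17, 3 and 0 in any library. The choice used no comparison between groups.

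All mice were C57BL/6J, an inbred strain, 8 to 12 weeks old when bought, group-housed on chow and kept in a light–dark cycle and then in constant darkness. Controls were fed ad libitum throughout, and fasted mice lost their food at circadian time (CT) 10, where CT counts hours of the mouse's own day in darkness. Tissue from the middle of the left liver lobe was taken every 4 h from CT8 to CT44, so that the fast had lasted 2 to 34 h from CT12 on and had not begun at CT8. Each treatment and time had 2 males and 2 females, each a separate mouse, which gave 80 libraries, 40 control and 40 fasted, in 20 groups of 4. Libraries of polyadenylated RNA kept the strand and were read from both ends.

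SLC25 carriers exchange metabolites between the cytosol and the mitochondrial matrix, because the inner membrane is otherwise closed to them. Each is a single chain made of repeated pairs of membrane helices, and the members are told apart by what they carry: phosphate and adenine nucleotides, carboxylic acids, amino acids, carnitine esters, coenzyme A, vitamin-derived cofactors, or iron. In liver they serve fatty acid oxidation, gluconeogenesis and the urea cycle, all 3 of which depend on traffic across this membrane. Fatty acids enter as acylcarnitines, citrate leaves for the synthesis of lipids, and ornithine, aspartate and glutamate are exchanged for the urea cycle.

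Stretches of 250 bases before the annotated start were available from RefSeq on GRCm38.p6 for 33 members, at 43 starts. They are shown for 5 of the 10 members with the largest rises and falls, those whose stretch holds AGGTCA or CACGTG. Of these 10, Slc25a32, Slc25a35 and Slc25a37 had no stretch available, and the stretches of Slc25a22 and Slc25a23 held neither motif. The nuclear receptor motif AGGTCA, or TGACCT on the other strand, is in capitals for Slc25a47 and Slc25a34, the 2 largest rises, and for Slc25a45, 1 of the 5 largest falls. The E-box CACGTG, which reads the same on both strands and is bound by CLOCK and BMAL1, is in capitals for the riser Slc25a33 and the faller Slc25a1.
Slc25a47, chr12:108850879-108851128, plus strand: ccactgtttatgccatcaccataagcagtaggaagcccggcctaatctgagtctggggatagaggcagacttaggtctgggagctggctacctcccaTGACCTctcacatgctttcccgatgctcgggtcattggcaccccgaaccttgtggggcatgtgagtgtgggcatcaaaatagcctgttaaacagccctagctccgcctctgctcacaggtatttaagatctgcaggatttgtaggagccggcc
Slc25a34, chr4:141623835-141624084, minus strand: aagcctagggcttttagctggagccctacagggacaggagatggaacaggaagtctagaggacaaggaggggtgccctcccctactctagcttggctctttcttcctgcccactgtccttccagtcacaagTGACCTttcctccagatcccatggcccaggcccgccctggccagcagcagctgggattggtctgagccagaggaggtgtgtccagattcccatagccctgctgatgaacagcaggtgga
Slc25a45, chr19:5877572-5877821, plus strand: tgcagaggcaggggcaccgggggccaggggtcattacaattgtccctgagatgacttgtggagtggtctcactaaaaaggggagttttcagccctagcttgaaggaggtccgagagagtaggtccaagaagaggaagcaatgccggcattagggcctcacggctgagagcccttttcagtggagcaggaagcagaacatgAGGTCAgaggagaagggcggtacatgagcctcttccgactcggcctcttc
Slc25a33, chr4:149774268-149774517, minus strand: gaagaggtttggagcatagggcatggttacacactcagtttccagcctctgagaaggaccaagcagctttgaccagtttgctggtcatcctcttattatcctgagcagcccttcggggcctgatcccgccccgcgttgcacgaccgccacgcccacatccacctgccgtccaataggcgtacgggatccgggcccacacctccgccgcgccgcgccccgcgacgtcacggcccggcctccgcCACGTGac
Slc25a1, chr16:17928220-17928469, minus strand: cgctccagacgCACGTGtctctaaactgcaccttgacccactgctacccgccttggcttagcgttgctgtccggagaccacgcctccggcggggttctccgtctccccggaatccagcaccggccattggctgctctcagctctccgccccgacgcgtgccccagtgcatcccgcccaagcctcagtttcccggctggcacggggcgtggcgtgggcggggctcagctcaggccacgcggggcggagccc

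AGGTCA began at position -153 from the start of Slc25a47, -119 of Slc25a34 and -50 of Slc25a45, and the E-box at -8 of Slc25a33 and -239 of Slc25a1. AGGTCA was present for 4 of the 33 members, the other being Slc25a39. By start that was 4 of 43, against 14.02% of all 32851 promoters of that length. The start of Slc25a47 lies inside the gene as GENCODE M21 draws it, chr12:108836046-108856815. CACGTG was present for 6 members, adding Slc25a13, Slc25a14, Slc25a15 and Slc25a36 to those shown. By start that was 7 of 43, against 6.02% of all promoters. The cyclic AMP response element TGACGTCA was found for Slc25a25 and Slc25a36, at 2 of 43 starts, and in 1.55% of all promoters. CCAAT was found for 18 members, at 21 of 43 starts, and in 33.8% of all promoters. Neither the DR1 element (AGGTCA repeated after 1 free base), found in 0.0335% of all promoters, nor the D-box TTATGTAA, in 0.819%, was present for a member. Both strands were searched, AGGTCA also counts inside a DR1 element, and a match describes letters, not binding.

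Each library held 25534901 to 59927771 counts on genes, with a median of 42303883. Sample titles and detailed labels disagreed on treatment for 40 libraries and on sex for 40, the titles were used, and sex markers matched the title in 80 of 80. The hepatocyte markers Alb, Apoa1 and others together reached at least 57850 CPM in every library from CT12 on, where CPM is a gene's counts scaled to a fixed total of gene counts per library. In bulk liver, fewer cells of a type and less RNA per cell cannot be told apart. Ribosomal RNA took 31.3% of the counts in control CT8 female 2 and at most 4.88% in any other library, and the ribosomal gene Rn18s-rs5 fell by 0.67 on the log2 scale with fasting, whose part in the results was not tested. Fasted CT40 female 2 held an extreme value in several members and is named for some of them.

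The first comparison asks how the carriers differed between fasted and fed livers in the mean of CT12 to CT44. Levels in CPM were scaled between libraries by the trimmed mean of M-values (TMM). Changes are log2 differences of fasted from control, with standard error, from edgeR's quasi-likelihood test on all genes, and a gene was called at a Benjamini–Hochberg adjusted p under 0.05. Of the 43 members, 37 were called, 86.0%, against a background of 62.5% of all genes tested. Among them 25 rose, where the background was 29.5%, and 12 fell, where it was 32.9%. The median change was 0.29 over the members and -0.02 over all genes. At all 9 times 16 of the risers lay above the controls in fitted value, and 8 of the fallers lay below. Rises reached at least 2-fold for 7 members, and falls for 1. For the counts at all 9 times and of 2-fold changes no share over all genes is given, so they describe the members alone. The same holds for the numbers of times without overlap given below.

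**Figure D1:**
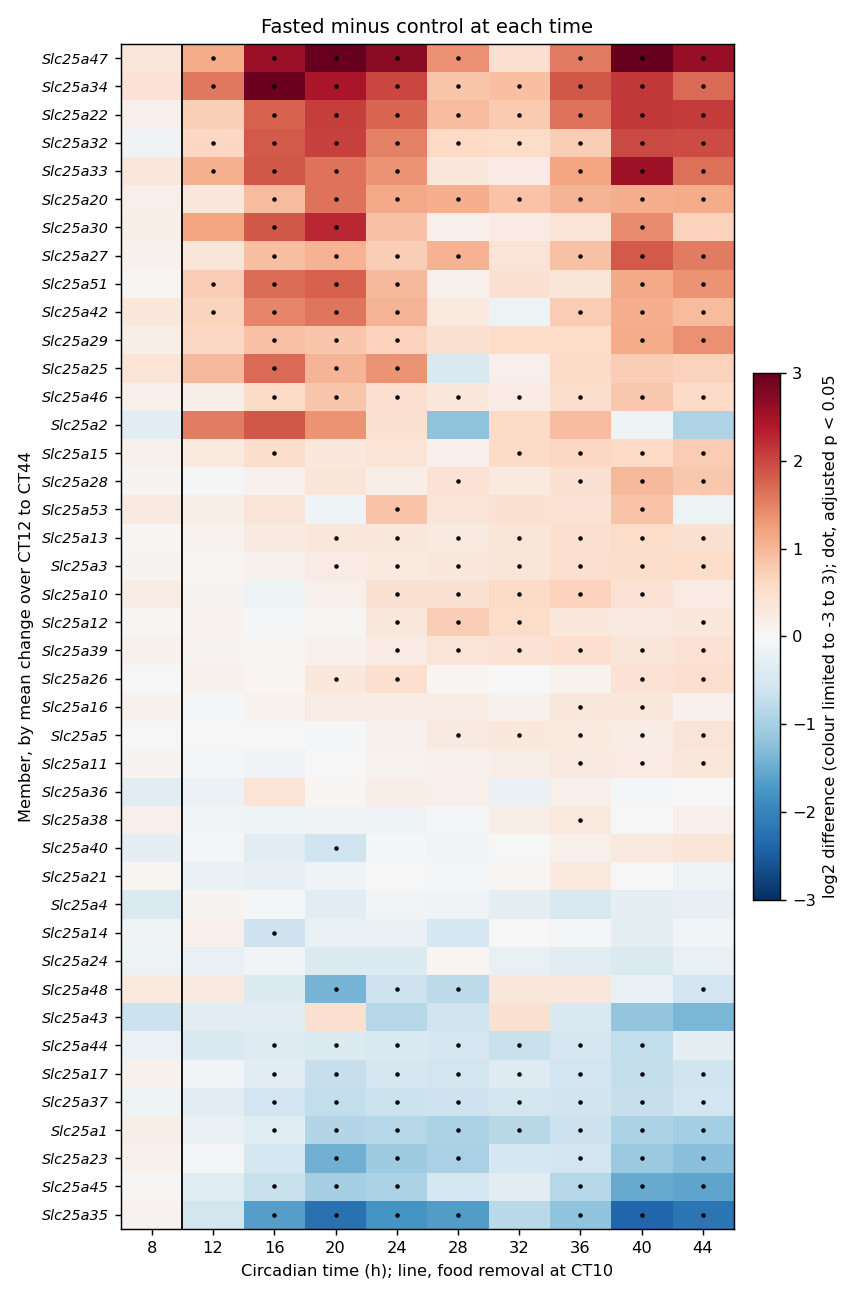
Heat map of the fasting effect (log2 scale, fasted minus control) of 42 SLC25 members (vertical axis, ordered by mean change) at CT8 to CT44 in hours (horizontal axis), with dots at an adjusted p under 0.05. Slc25a47 and Slc25a34 carry the strongest positive colours, which after CT12 are palest at CT28 and CT32, and Slc25a35 the strongest negative ones.

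The largest rise was that of Slc25a47, a carrier enriched in liver whose substrate is not settled. Control livers ranged from 51.3 through a median of 234 to 647 CPM, and fasted livers from 511 through 1035 to 2529 CPM (n = 36 each). The ranges overlapped only between 511 and 647 CPM. Slc25a47 rose by 2.13 ± 0.10 on the log2 scale, 4.36-fold (adjusted p = 1.01e-23). At CT20 the 4 control values were 195 and 163 CPM in males and 51.3 and 152 CPM in females, against 1234, 1502, 1722 and 1320 CPM in fasted mice. The lowest fasted liver was several times above the highest control liver there, and the groups did not overlap at 8 of the 9 times. At CT32 control values were 647, 508, 398 and 484 CPM, and fasted values were 649.5, 511, 918 and 776 CPM. Control and fasted males met at that time, and the difference of 0.47 ± 0.28 was not called (adjusted p = 0.254).

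Slc25a34, a little-characterised carrier, had a low level and the second largest rise. It went from 4.22, 6.29 and 11.1 CPM (lowest, median, highest) in controls to 8.82, 23.3 and 57.5 CPM in fasted livers. The rise was 1.83 ± 0.08, or 3.54-fold (adjusted p = 8.02e-25). At CT16 controls held 4.76, 5.19, 5.53 and 5.03 CPM and fasted livers 38.6, 25.3, 41.3 and 57.5 CPM. Every fasted liver was far above every control at that time, where the change was largest, 2.95 ± 0.24. The other little-characterised members were mixed. Slc25a53 rose by 0.37 ± 0.07 near 1 to 2 CPM, Slc25a48 fell by 0.34 ± 0.07, and Slc25a43, at most 0.456 CPM in any of these libraries, was not called (adjusted p = 0.0964). Of this group of 7, 3 rose and 3 fell.

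Slc25a35 and Slc25a45 belong to the same group and were the 2 largest falls of the family. Slc25a35 held 1.34, 2.85 and 4.12 CPM in controls and 0.221, 0.733 and 2.33 CPM in fasted livers, a fall by 1.61 ± 0.10 on the log2 scale (adjusted p = 2.6e-18). At CT40 controls had 2.91, 4.12, 3.13 and 3.26 CPM and fasted livers 0.655, 0.649, 0.977 and 0.221 CPM. The groups were well apart, and the lowest value was fasted CT40 female 2. Slc25a45 held 21.2, 29.6 and 40.3 CPM in controls and 2.50, 16.6 and 26.8 CPM in fasted livers, and fell by 0.86 ± 0.08 (adjusted p = 2.07e-13). At CT44, its time of largest change, controls had 30.3, 34.9, 28.8 and 30.3 CPM and fasted livers 11.9, 9.71, 6.34 and 13.2 CPM. All fasted values were below all control values. Slc25a35 shares up to 1882 bases with Rangrf on the opposite strand in GENCODE M21, and whether counting used the strand is not given in the sources used here, so the 2 genes cannot be told apart with certainty.

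Among the amino acid carriers 5 of 8 rose, 1 fell and the median change was 0.41. Slc25a22 brings glutamate into the matrix. Its level was 131, 193 and 300 CPM in controls and 203, 583 and 1197 CPM in fasted livers, a rise of 1.55 ± 0.07, 2.92-fold (adjusted p = 1.08e-22). At CT40 controls held 144, 142.5, 168 and 166 CPM, and fasted livers 607, 698.5, 546 and 821 CPM. Slc25a22 was the member whose groups did not overlap at any of the 9 times, though at CT12 edgeR did not call it (adjusted p = 0.0802). Slc25a15, which exchanges ornithine and citrulline for the urea cycle, rose by 0.47 ± 0.06 from 341 ± 61.1 to 477 ± 116 CPM (SD, n = 36). Slc25a13 (citrin), the liver aspartate–glutamate carrier of the malate–aspartate shuttle, rose by 0.35 ± 0.03, and its relative Slc25a12 (aralar), at 2.79 against 73.2 CPM per kb of exon, by 0.29 ± 0.04. Slc25a29, a carrier of basic amino acids with means of 2.099 and 3.71 CPM, rose by 0.78 ± 0.08. Slc25a44, a carrier of branched-chain amino acids, fell by 0.49 ± 0.05 (adjusted p = 2.61e-12), from 97.0 ± 22.4 to 68.5 ± 10.1 CPM. Slc25a38, linked to glycine import for heme, had a difference of 0.02 ± 0.03 and was not called, nor was the ornithine carrier Slc25a2 at 0.49 ± 0.30, whose median was 0.0853 CPM in controls and 0.133 CPM in fasted livers.

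Carriers of vitamin-derived cofactors and pyrimidine nucleotides included 2 of the 5 largest rises, and 4 of 6 rose. Slc25a32, which carries folate and flavin adenine dinucleotide, held 19.8, 25.7 and 53.4 CPM in controls and 29.2, 74.5 and 125 CPM in fasted livers. It rose by 1.32 ± 0.06, 2.49-fold (adjusted p = 2.28e-24). At CT20 controls had 25.6, 25.8, 21.9 and 22.7 CPM and fasted livers 95.3, 91.0, 117.5 and 90.5 CPM, with no overlap and little spread within either group. Slc25a33, a pyrimidine nucleotide carrier, held 4.98, 13.1 and 19.6 CPM in controls and 11.2, 30.2 and 98.1 CPM in fasted livers. It also rose by 1.32 ± 0.08 (adjusted p = 2.91e-18). At CT40 controls had 14.6, 13.1, 6.25 and 6.09 CPM and fasted livers 50.1, 42.0, 27.0 and 98.1 CPM. In controls the pair of males was above the pair of females, and fasted CT40 female 2 was the highest of all libraries. Slc25a51, the mitochondrial NAD carrier, rose by 0.96 ± 0.06, and Slc25a26, which imports S-adenosylmethionine, by 0.24 ± 0.03 from 5.24 ± 0.64 to 6.19 ± 0.88 CPM. Slc25a36, the second pyrimidine nucleotide carrier, was not called at 0.06 ± 0.05 (adjusted p = 0.333). Slc25a33 overlaps Gm13068 on the opposite strand.

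**Figure D2:**
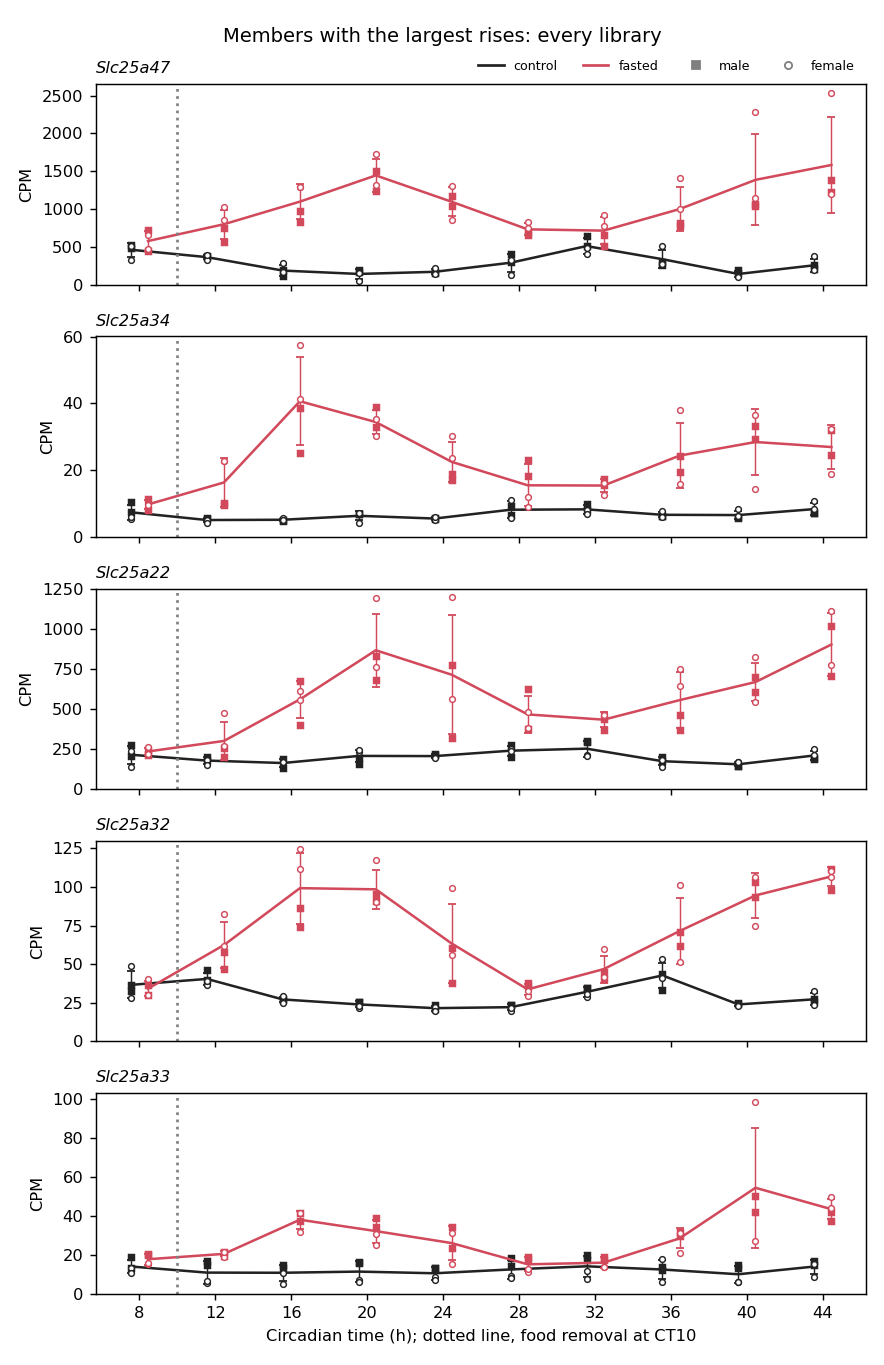
CPM of the 5 members with the largest rises in each library (vertical axes) against CT in hours (horizontal axes), with 1 point per mouse, lines through the group means and bars of 1 SD. Fasted points lie above control points at most times, and for Slc25a47 the groups meet at CT32.

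Carnitine and coenzyme A carriers had a median change of 0.52, with 3 of 4 rising. Slc25a20, the carnitine–acylcarnitine carrier of fatty acid oxidation, went from 46.8, 93.4 and 124 CPM to 87.6, 188 and 243 CPM and rose by 1.02 ± 0.05, 2.03-fold (adjusted p = 2.3e-22). At CT20 its 4 fasted livers were at 225, 215.5, 220 and 230 CPM and the controls at 69.8, 82.1, 56.5 and 80.9 CPM. The fasted values lay close together, and the groups of Slc25a20 were apart at 8 of 9 times. Slc25a42, a mitochondrial coenzyme A carrier, rose by 0.86 ± 0.05 from 118 ± 25.4 to 222 ± 78.6 CPM. Slc25a16, also linked to coenzyme A, rose by 0.18 ± 0.03, while Slc25a17, the peroxisomal carrier of the family, fell by 0.49 ± 0.04 from 48.9 ± 9.46 to 34.7 ± 6.73 CPM. Cpt1a and Cpt2, the acyltransferases on either side of Slc25a20, rose by 1.46 ± 0.05 and 0.77 ± 0.05.

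Of the 4 carriers of di- and tricarboxylic acids, 2 rose, 1 fell and the median change was 0.04. Slc25a1 exports citrate, the source of cytosolic acetyl groups for lipid synthesis. It held 141, 196 and 261 CPM in controls and 67.6, 112 and 220 CPM in fasted livers, a fall by 0.75 ± 0.04 (adjusted p = 1.57e-22). At CT44 controls had 205, 199, 141 and 171 CPM, and fasted livers 103, 82.3, 86.8 and 76.7 CPM. No fasted value reached the lowest control there, and the groups were apart at 7 of 9 times. The cytosolic enzyme that splits exported citrate, Acly, fell by 2.41 ± 0.11 from 722 ± 516 to 159 ± 167 CPM. The dicarboxylate carrier Slc25a10 rose by 0.33 ± 0.05 and the oxoglutarate carrier Slc25a11 by 0.12 ± 0.03, while Slc25a21, a carrier of longer oxodicarboxylates, was not called at -0.05 ± 0.09.

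The 6 carriers of phosphate and adenine nucleotides divided into 3 rises and 3 falls. Slc25a3, the phosphate carrier, rose by 0.33 ± 0.03 from 238 ± 17.7 to 302 ± 43.3 CPM, and Slc25a5, the main ADP/ATP carrier of these livers, by 0.17 ± 0.02 from 308 ± 30.2 to 346 ± 37.9 CPM. Slc25a23 and Slc25a25, which exchange ATP-magnesium for phosphate under control of calcium, moved in opposite directions. Slc25a23 held 321, 380 and 457 CPM in controls and 46.4, 220 and 375 CPM in fasted livers and fell by 0.84 ± 0.07 (adjusted p = 1.99e-14). At CT20 controls had 382, 352, 441 and 369 CPM and fasted livers 211, 177, 85.7 and 121 CPM. All fasted livers were below all controls, and the pair of fasted females was below the pair of fasted males. Slc25a25 rose by 0.75 ± 0.11 (adjusted p = 1.17e-07), and at CT16 controls had 224, 185, 160 and 91.7 CPM against 331, 657, 580 and 532.5 CPM in fasted livers. Slc25a24, of the same kind, fell by 0.25 ± 0.07 near 2 CPM, and Slc25a4, a second ADP/ATP carrier, fell by 0.19 ± 0.07 near 4 CPM. Slc25a4 and Slc25a5 are close relatives, and whether counting split reads between them was not tested, which leaves some uncertainty in their values. Slc25a23 shares up to 3433 bases with Crb3 or Gm17168 on the opposite strand.

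Carriers of iron and glutathione gave 2 rises and 1 fall among 4. Slc25a37 (mitoferrin 1), the iron importer best known from red cell precursors, held 38.5, 61.6 and 77.7 CPM in controls and 23.4, 39.5 and 64.1 CPM in fasted livers and fell by 0.59 ± 0.05 (adjusted p = 4.65e-13). At CT20 controls had 48.5, 65.1, 47.5 and 53.0 CPM and fasted livers 39.8, 31.2, 25.1 and 33.0 CPM. The groups were apart there and at 7 of 9 times. Of 6 red cell genes tested 2 fell, Alas2 and Hbb-bt, and their summed level had a range of 53.5 to 287 CPM in controls and 33.0 to 271 CPM in fasted livers. Their part in the fall of Slc25a37 was not tested. Slc25a28 (mitoferrin 2), the widely expressed relative, rose by 0.40 ± 0.05, and Slc25a39, a glutathione carrier, by 0.29 ± 0.03 from 364 ± 31.5 to 447 ± 60.5 CPM. For Slc25a28 the highest fasted female held 80.28 CPM, against a median of 28.25 CPM in fasted females and at most 32.11 CPM in fasted males. Its rise was 0.3552 to 0.4081 over the refits. Slc25a40, its relative, was not called at -0.03 ± 0.06. Slc25a37 overlaps noncoding genes on the opposite strand.

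**Figure D3:**
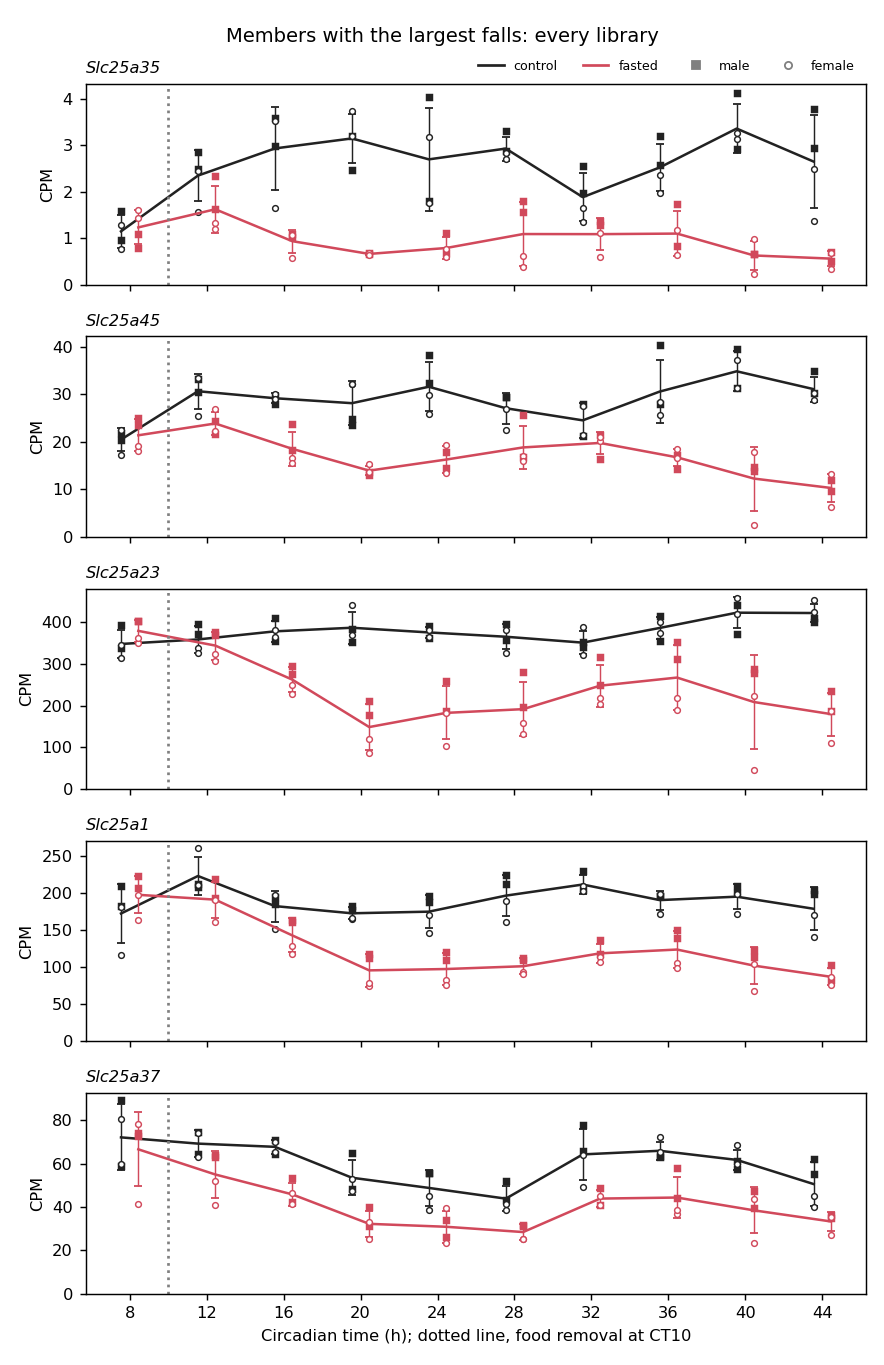
CPM of the 5 members with the largest falls in each library (vertical axes) against CT in hours (horizontal axes), with 1 point per mouse, lines through the group means and bars of 1 SD. The treatments lie close at CT8, and fasted points lie below control points at later times, with fasted CT40 female 2 lowest for Slc25a23, Slc25a35 and Slc25a45.

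Of the 3 relatives of the uncoupling proteins 2 rose and 1 fell. Slc25a30 rose by 1.01 ± 0.17 (adjusted p = 1.6e-06) with a wide spread, from 10.51, 24.01 and 145 CPM in controls to 18.3, 57.4 and 249 CPM in fasted livers, and Slc25a27 by 0.98 ± 0.08 from 1.96 ± 0.72 to 3.80 ± 1.37 CPM. Slc25a14 fell by 0.20 ± 0.08 near 1 CPM. Slc25a46, which sits in the outer membrane and takes part in mitochondrial dynamics, rose by 0.51 ± 0.03 (adjusted p = 8.76e-22) from 39.3 ± 3.91 to 56.1 ± 7.52 CPM. The spread of Slc25a46 was small enough that its groups were apart at 7 of 9 times. The calls of Slc25a4, Slc25a14 and Slc25a24 were lost in 1 or more refits, with adjusted p up to 0.079 for Slc25a4 without male replicate 1, 0.205 for Slc25a14 without male replicate 1 and 0.0658 for Slc25a24 without male replicate 2.

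Per kilobase of exon, with lengths from GENCODE M21, the order of levels over all libraries was led by Slc25a47 at 222 CPM per kb, Slc25a5 at 195 and Slc25a39 at 144. The lowest were Slc25a2 and Slc25a43 at 0.0897 and 0.0626 CPM per kb. Slc25a5 held 335 ± 7.09 CPM in controls and 331 ± 11.0 CPM in fasted livers at CT12 (SD, n = 4), and 292 ± 8.71 and 381 ± 17.5 CPM at CT44. Slc25a39 moved likewise from 384.5 ± 12.5 and 406 ± 15.3 CPM at CT12 to 367 ± 22.4 and 497 ± 67.9 CPM at CT44. For both the groups lay farther apart at CT44 than at CT12.

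The effect was next followed from time to time. At CT8, before food was removed, 0 members were called by edgeR, by DESeq2 or by limma, 3 had an unadjusted p under 0.05 in edgeR, and the background was 1.33%. Without female replicate 1 of every group, 9 members were called at CT8. Background percentages here and below belong to fits that leave out no replicate. At CT12, after 2 h, 6 members were called and all were higher, against 1.6% of all genes, but 0 without male replicate 1 or without male replicate 2, when 11 and 10 had an unadjusted p under 0.05. At CT16 21 members were called, 14 higher and 7 lower (background 23.4%), and at CT20 26, 16 higher and 10 lower (36.6%). At CT24 27 were called, 19 higher (24.1%), at CT28 21, 14 higher (21.0%), and at CT32 16, 12 higher (17.7%). The count went up again to 27 at CT36, 19 higher (26.8%), 31 at CT40, 23 higher (39.9%), and 28 at CT44, 20 higher (39.4%). From CT16 on, CT32, in the subjective day, had the fewest calls both among members and over all genes. Without male replicate 1 the counts were 12 at CT16, 11 at CT24, 7 at CT28, 5 at CT32 and 14 at CT36, and without male replicate 2 they were 13, 19, 11, 3 and 16.

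A joint test asked whether the effect differed between the 9 times, and 28 members were called against a background of 33.7%. The count was 8 without male replicate 1 and 7 without male replicate 2. The changes of Slc25a47, Slc25a32 and Slc25a42 varied with the smallest p (1.63e-07, 2.2e-08 and 3.09e-08, adjusted). Slc25a47 differed by 1.11 at CT12, 3.42 at CT20, 1.37 at CT28, 0.47 at CT32, 3.30 at CT40 and 2.62 at CT44 on the log2 scale. Slc25a32 gave 2.04 at CT20, 0.54 at CT32 and 1.98 at CT40. For 11 of the 25 risers the smallest single-time value was at CT28 or CT32, among them Slc25a47 and Slc25a32. For others it was at CT12, among them Slc25a3, Slc25a20 and Slc25a22, and no share over all genes is given. Slc25a22 went from 0.72 at CT12 to 2.07 at CT20, 0.80 at CT32 and 2.11 at CT40. Slc25a42 was not called at CT32, with -0.15 ± 0.14, after 1.61 ± 0.14 at CT20. Slc25a37 is a contrasting case, with -0.74 at CT20, -0.54 at CT32 and -0.69 at CT40, and no call for a difference between times (adjusted p = 0.919).

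Some members had another course. Slc25a12 was at 0.03 ± 0.13 at CT20 and rose by 0.74 ± 0.13 at CT28, when controls held 14.95, 18.3, 16.9 and 16.9 CPM and fasted livers 31.5, 26.6, 30.8 and 23.4 CPM. These groups did not overlap. Slc25a48 fell by 1.39 ± 0.23 at CT20 (adjusted p = 3.64e-06), from 20.5, 16.8, 21.5 and 11.5 CPM to 9.61, 11.2, 4.00 and 4.58 CPM. All its fasted livers were below the controls at CT20, but at CT36 they held 24.7, 26.6, 14.1 and 17.1 CPM against 20.4, 20.4, 14.8 and 9.96 CPM, which overlapped, and the difference of 0.33 ± 0.22 was not called. The phosphate carrier Slc25a3 was highest in effect at CT44, where controls had 240, 242, 223 and 229 CPM and fasted livers 279, 333, 415 and 359 CPM, a rise of 0.56 ± 0.08.

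Daily rhythms were fitted as a 24 h cosine, whose size is the log2 difference of peak from trough. In the 40 control libraries 25 of 43 members were rhythmic, against 41.8% of all genes, with a median size of 0.37 over members and 0.36 over all genes. The peak fell between CT8 and CT16 for 17 of them, and the share of all rhythmic genes that peaked then is not given. Slc25a47 had the largest called rhythm, 1.45 with a peak at CT 7.98 (adjusted p = 4.89e-06). Its control mean was 460.5 ± 93.2 CPM at CT8, 140 ± 62.2 at CT20, 509 ± 103 at CT32 and 140 ± 41.6 at CT40 (SD, n = 4). High values thus returned 24 h after the first. Slc25a32 followed with 0.85 and a peak at CT 11.2 (adjusted p = 2.25e-07), from 40.5 ± 4.04 CPM at CT12 to 21.6 ± 1.61 at CT24 and 42.8 ± 8.34 at CT36. Slc25a35 came next and was nearly opposite, 0.76 with a peak at CT 19.6 (adjusted p = 0.00606), from 1.14 ± 0.36 CPM at CT8 to 3.14 ± 0.53 at CT20, 1.88 ± 0.52 at CT32 and 3.35 ± 0.53 at CT40. Iron and glutathione carriers were rhythmic in 4 of 4 cases, with Slc25a37 at 0.64 and a peak at CT 12.2, while the relatives of the uncoupling proteins had adjusted p from 0.338 to 0.676.

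In fasted livers, with a linear change over CT12 to CT44 added to the fit, 32 of 42 members tested were rhythmic, against 47.1% of all genes, and the median size was 0.59 over members and 0.44 over all genes. Peaks were near CT16 to CT22 for 15 members and near CT6 to CT13 for 16, again without a share over all rhythmic genes. Slc25a51 had 1.56 with a peak at CT 17.3, Slc25a33 1.62 at CT 17.7 (adjusted p = 6.64e-08), Slc25a32 1.496 at CT 17.6 (adjusted p = 6.63e-09) and Slc25a42 1.34 at CT 19.7 (adjusted p = 1.03e-10). These carriers of cofactors, pyrimidine nucleotides and coenzyme A thus peaked within a few hours of each other in the subjective night. Slc25a35, Slc25a23 and Slc25a1, all fallers, peaked at CT 8.92, 11.0 and 11.4. By call, 19 members were rhythmic in both treatments, 13 in fasted livers and not in controls, and 6 in controls and not in fasted livers, which is no test of a difference.

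The difference of the rhythms was tested over the 72 libraries from CT12 on, and 19 members were called, against a background of 23.2%. Slc25a32 had the smallest p (4.61e-10, adjusted), followed by Slc25a42 (3.04e-09) and Slc25a47 (8.09e-09). The fitted peak of Slc25a47 was at CT 7.98 in controls and CT 19.2 in fasted livers, where its mean was 1444 ± 216 CPM at CT20, 713.5 ± 174 at CT32 and 1385 ± 601 at CT40. Times of high level in controls were thus times of lower level in fasted livers. Slc25a42 was not called in controls (0.35, adjusted p = 0.052), and its fasted mean was 342 ± 36.7 CPM at CT20, 124 ± 17.1 at CT32 and 289.5 ± 34.3 at CT44. Slc25a48 had almost no control rhythm, 0.02 with an adjusted p of 0.994, and 1.46 at CT 10.1 in fasted livers (adjusted p = 7.46e-07), with a difference at an adjusted p of 3.27e-05. Its fasted means were 7.35 ± 3.60 CPM at CT20, 20.6 ± 6.02 at CT36 and 9.25 ± 1.37 at CT44, around control means between 12.9 and 17.9 CPM. Slc25a37 kept the fitted peak at CT 12.2 in both treatments, with no call for a difference (adjusted p = 0.594). The difference was called for 4 of 6 cofactor and pyrimidine nucleotide carriers and 5 of 7 little-characterised members, and for 1 of 4 iron and glutathione carriers. Without male replicate 2, 12 members were called. The fasted fit spans less than 2 full days, so a rhythm and a change along the fast cannot be told apart with certainty.

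**Figure D4:**
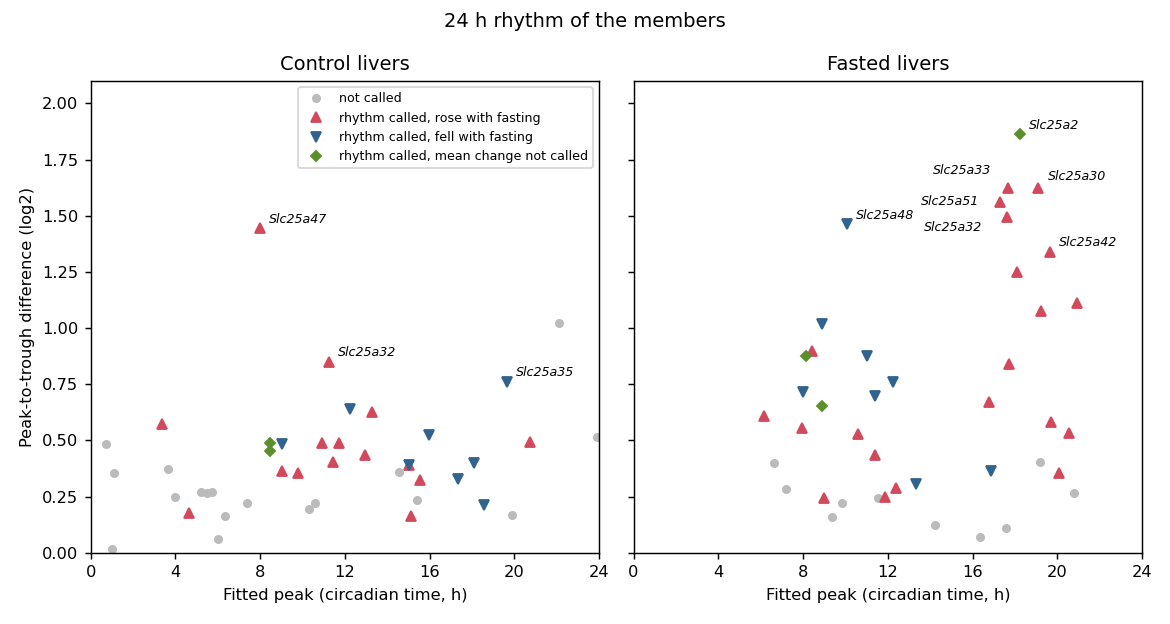
Fitted peak time in CT hours (horizontal axes) against the log2 peak-to-trough size (vertical axes) of the members' 24 h rhythm in control and in fasted livers. Control peaks gather between CT8 and CT16, with Slc25a47 highest at 1.45, and most fasted peaks fall near CT16 to CT22 or near CT6 to CT13.

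Whether males and females responded alike was asked by the difference of their fasting effects, and 10 members were called, 8 with a higher and 2 with a lower effect in females, against 12.4% of all genes (5.35% higher, 7.02% lower). In all 10 the effect had the same sign in both sexes and was larger in females. For Slc25a3 males had 219, 245 and 284 CPM (lowest, median, highest, n = 18) when fed and 243, 283 and 333 CPM when fasted, and females 196, 229 and 258 CPM and 249, 301 and 426 CPM. The ranges overlap in each sex, and the effect was 0.21 in males and 0.45 in females (difference 0.24 ± 0.05, adjusted p = 0.0015). For Slc25a23 fed males had 340, 377 and 441 CPM and fasted males 177, 277 and 375 CPM. Fed females had 321, 380 and 457 CPM and fasted females 46.4, 187 and 322 CPM. The fed ranges of the sexes largely coincided and fasted females reached lower values, with effects of -0.53 and -1.14 (difference -0.61 ± 0.14, adjusted p = 0.00264).

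Slc25a33 had 12.2, 14.6 and 19.6 CPM in fed males, 17.3, 32.8 and 50.1 CPM in fasted males, 4.98, 7.42 and 17.9 CPM in fed females and 11.2, 26.0 and 98.1 CPM in fasted females. Fed females lay mostly below fed males, while the fasted ranges overlapped, and the effects were 0.96 and 1.67 (difference 0.71 ± 0.17, adjusted p = 0.00334). The other 7 called were Slc25a1, Slc25a12, Slc25a28, Slc25a29, Slc25a46, Slc25a47 and Slc25a53, with differences of -0.23 for Slc25a1 and 0.21 to 0.54 for the rest. Fasted females of Slc25a28 had a highest value of 80.28 CPM, far above their median of 28.25 CPM. The sex calls were not stable: without male replicate 1 or without male replicate 2 edgeR called 0 members, where 12 and 9 had an unadjusted p under 0.05. Those refits had 1 male for each treatment and time, so they cannot show which mice carried the calls. Without fasted CT40 female 2, the library that was extreme for Slc25a23 and Slc25a33, 10 members were called.

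**Figure D5:**
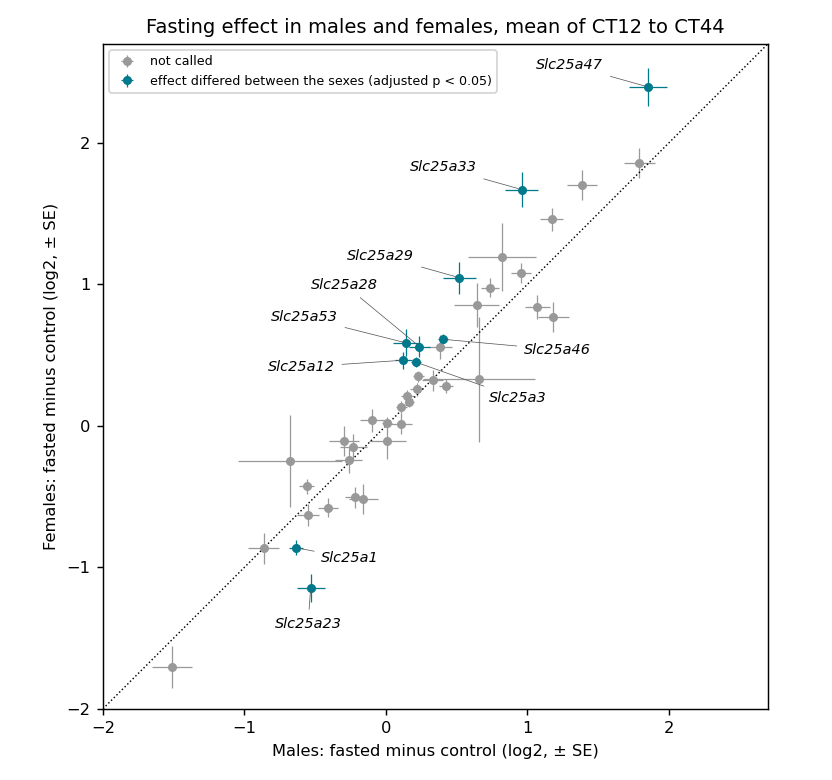
Fasting effect in males (horizontal axis) against females (vertical axis), log2 units, 1 point for each member with bars of 1 standard error. The 10 members called for a sex difference lie farther from 0 on the female axis, from Slc25a23 at -1.14 to Slc25a47 at 2.40.

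In control livers alone, 20 members differed between the sexes, 5 higher and 15 lower in females, against 39.2% of all genes (20.6% higher, 18.6% lower), with a median difference of -0.11 over members and 0.01 over all genes. Slc25a17, the peroxisomal carrier, had 40.2, 54.9 and 67.4 CPM in males and 27.4, 41.7 and 51.4 CPM in females (lowest, median, highest, n = 20) and was lower in females by -0.48 ± 0.05 (adjusted p = 4.06e-10). Slc25a27 went the other way with 0.765, 1.43 and 2.03 CPM in males and 1.51, 2.38 and 3.64 CPM in females, a difference of 0.80 ± 0.10 (adjusted p = 2e-08). Slc25a33 had 12.2, 14.6 and 19.6 CPM in males and 4.98, 7.99 and 17.9 CPM in females, a difference of -0.82 ± 0.11 (adjusted p = 9.77e-08). Ranges of the sexes overlapped in part for all 3. Also higher in females were Slc25a36, Slc25a24, Slc25a4 and Slc25a44, at 0.19 to 0.43. For Slc25a4 the highest female value was 17.3 CPM with CT8 and 5.90 CPM from CT12 on, and for Slc25a36 9.79 and 6.25 CPM. Means from CT12 on were 4.82 CPM in females and 4.10 CPM in males for Slc25a4, and 4.79 and 3.69 CPM for Slc25a36. The count of members called was 10 without male replicate 1.

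Exon usage compares the share of a gene's counts that lies on each exon bin, and is separate from the gene's level. Bins are stretches of exon that the authors numbered within each gene, with no coordinates in the table. Among 41 members tested 12 were called, against 14.7% of all genes. Slc25a22 had the smallest p (5.87e-25, adjusted), and 8 of its 72 bins differed. Its bin 69 held 0.236% ± 0.066 of the gene's bin counts in controls and 0.101% ± 0.034 in fasted livers (SD, n = 36), at a mean of 64.0 and 69.4 counts, so its count stayed near the same value while the gene rose. Bin 62 moved the other way, from 0.244% to 0.405%. Slc25a47 was second (1.25e-10), and its bin 4 went from 0.128% ± 0.095 to 0.0398% ± 0.016 at means of 17.6 and 24.1 counts. Both sets of bins hold a very small part of the transcript. Slc25a3 came next (2.35e-09), with 8 of 28 bins called, all higher, of which bin 22 went from 2.42% ± 0.35 to 3.17% ± 0.62. The others called were Slc25a1, Slc25a11, Slc25a13, Slc25a15, Slc25a20, Slc25a23, Slc25a38, Slc25a39 and Slc25a51. The count was 7 or 8 in refits without 1 replicate of either sex.

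Genes around the family were taken from lists of transporters and enzymes. Of 4 SLC25 proteins under other symbols that were tested, 2 rose and 1 fell: the uncoupling protein gene Ucp2 rose by 0.44 ± 0.06 to 43.5 CPM, the outer membrane protein gene Mtch2 by 0.28 ± 0.02, and Mtch1 fell by 0.19 ± 0.02. Of 15 transporters of the inner membrane from other families 8 rose and 5 fell, with a median of 0.06. The largest were a rise by 1.12 ± 0.06 of Slc8b1, the sodium–calcium exchanger, and a fall by 1.06 ± 0.05 of Abcb10, while the pyruvate carrier subunits Mpc1 and Mpc2 rose by 0.26 ± 0.03 and 0.23 ± 0.03. Among 18 enzymes that supply or use what the carriers move, 11 rose and 6 fell, and the median was 0.32. Got1, the cytosolic aspartate aminotransferase that works with Slc25a13, had the largest rise, 1.72 ± 0.13, from 267 ± 102 to 931 ± 636 CPM.

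Markers of other liver cells were set beside these results. All 5 Kupffer cell markers fell, with a summed range of 182 to 541 CPM in controls and 118 to 390 CPM in fasted livers, and 4 of 5 cholangiocyte markers fell (24.6 to 66.0 and 6.78 to 50.3 CPM). Of 5 hepatocyte markers 3 rose and 1 fell, of 5 endothelial 2 rose and 2 fell, of 5 stellate 2 rose and 3 fell, and of 5 leukocyte markers 1 fell. The 4 muscle markers were too low to test, summing to at most 0.172 CPM. Of 2 adipocyte genes tested 1 rose, Cidec, from a mean of 1.43 to 81.84 CPM, while Adipoq had means of 0.01573 and 0.04955 CPM. Of 4 pancreas genes 1 fell, Cela1, and Pnlip, Cpa1 and Prss2 had means of at most 0.1104 CPM. In controls the Kupffer cell sum had a median of 284 CPM and the cholangiocyte sum 39.1 CPM. The part of these cell types in the members' changes was not tested.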

How the data were processed

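RNA from 80 livers was sequenced from both ends. The authors deposited raw counts per gene and per exon bin, whole numbers with no normalization. The submitters' processing notes name Trimmomatic, HISAT2, DESeq2 and GRCm39, without versions, and the counting program is not given in the sources used here. A further table of normalized values was not used. Titles set treatment, time, sex and replicate. Members and lists were chosen with earlier results of these data known.

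In R 4.3.3, edgeR 4.0.16 gave the main tests by its quasi-likelihood method, after filterByExpr had taken out low counts and TMM had set the scale of each library. The mean for each treatment, time and sex entered the fasting tests, over all 80 libraries. Rhythms had a sine and cosine of 24 h and sex. Exon usage was tested by diffSpliceDGE with Simes' method on 235680 bins, after leaving out 5 rows naming no bin (8.28% to 25.9% of counts). The exon columns of fasted CT40 were used as 1 group, because 3 matched another mouse. P-values were adjusted over all genes. CPM values had no prior count, and peak-to-trough sizes are fitted. Tests were tried on simulated data.

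Named with values were the 5 largest rises and falls, the 3 leading members for control rhythm, sex difference, control sex, level per length and exon usage, and listed partner genes. Other members were added by role, some after their values were seen. Alternatives were DESeq2 1.42.0, its size factors, limma 3.58.1, no filter, single sexes, a replicate block, other thresholds, other rhythm models, other exon tests and leaving out each replicate. Leaving out fasted CT40 female 2 was chosen after seeing the data. The values of 1 member are not reported here, though it is in the counts.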

Additional observations from a re-analysis of the deposited data

Results flagged for a closer look

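Among 200 groups of 4 livers examined for the 10 members with the largest changes, 10 held a library apart from its 3 companions, and chance gives about 1 in 20, or 10.0. In Slc25a47, fasted CT40 female 2 held 2283 CPM (the other 3 livers 1039 to 1149) and fasted CT44 female 1 held 2529 CPM (1196 to 1384). In Slc25a34, control CT20 female 1 held 4.27 CPM (6.82 to 7.27). In Slc25a33, fasted CT36 female 2 held 20.8 CPM (29.8 to 31.5). In Slc25a35, fasted CT16 female 1 held 0.565 CPM (1.01 to 1.10). In Slc25a45, fasted CT28 male 2 held 25.5 CPM (15.9 to 17.1). In Slc25a1, control CT12 female 1 held 261 CPM (208 to 212) and control CT36 female 2 held 172 CPM (196 to 199). In Slc25a37, fasted CT8 female 1 held 41.3 CPM (72.6 to 78.5) and fasted CT44 female 1 held 27.1 CPM (34.9 to 36.2).

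The fasting effect differed between the sexes in 10 members by edgeR's interaction test. The female minus male difference (log2) was 0.24 for Slc25a3 (adjusted p = 0.0015), -0.61 for Slc25a23 (0.00264), 0.71 for Slc25a33 (0.00334), 0.21 for Slc25a46 (0.00506), 0.34 for Slc25a12 (0.00624), 0.53 for Slc25a29 (0.0239), 0.44 for Slc25a53 (0.0248), 0.32 for Slc25a28 (0.0308), -0.23 for Slc25a1 (0.0317) and 0.54 for Slc25a47 (0.0437). Members whose effect differed between the 9 times numbered 28.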

How the results depend on the processing

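Counts of members called are given here, without the share over all genes in each refit. No setting turned the direction of a change for the 10 members with the largest changes. Without the filter on low counts 1 member was called at CT8 and 11 at CT12. With a minimum change of 1.5 times 17 were called in the mean of CT12 to CT44, and with a minimum peak-to-trough ratio of 1.5 times 5 were rhythmic in controls. Leaving out each replicate in turn gave 35 to 37 for the mean, 7 to 25 for a difference between times, 0 to 11 for a difference between the sexes, 10 to 23 for control sexes, 20 to 23 for control rhythms, 23 to 31 for fasted rhythms, 12 to 16 for a difference of rhythms and 7 to 8 for exon usage. At single times it gave 0 to 9 at CT8, 0 to 7 at CT12, 12 to 20 at CT16, 18 to 23 at CT20, 11 to 26 at CT24, 7 to 24 at CT28, 3 to 19 at CT32, 14 to 26 at CT36, 24 to 30 at CT40 and 23 to 28 at CT44. The lowest counts from CT12 to CT44, and for sexes and times, came without a male replicate. Leaving out a female replicate removes as many mice, and the cause of these lowest counts was not tested. DESeq2, limma and DESeq2's size factors gave 37 each for the mean.

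With replicate numbers as a replicate block, 37 members were called for the mean, 10 for sexes, 16 for control sexes, 27 for times, 23 for control and 33 for fasted rhythms and 18 for their difference, and 10 for exon usage without CT40. It moved no count by over 1.5 times. Replicate numbers gave little sign of pairing the mice, since 1 of 20 pairs had a correlation over 0.1 (range -0.0564 to 0.249). Low correlations cannot exclude that the numbers mark something shared between mice.

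Low counts limit Slc25a2 and Slc25a43, whose medians lie near 0.1 CPM.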
